A study of Ovis aries with 15 samples.

Results

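The cytochrome P450 genes measured in sheep kidney by RNA sequencing are described here. Cytochromes P450 are heme enzymes that insert an oxygen atom into their substrates, and in mammals the members of families 1 to 3 act mostly on drugs, toxins and other foreign compounds, whereas families 4 and above act mostly on fatty acids, vitamins, sterols and steroids. The enzymes in the endoplasmic reticulum receive electrons from NADPH-cytochrome P450 reductase, and the mitochondrial ones from ferredoxin. The mold toxin aflatoxin B1 (AFB1) becomes its reactive epoxide through P450 enzymes, in humans mainly CYP1A2 and CYP3A enzymes and, in the airways, CYP2A13. In the kidney, P450 enzymes are best known for the hydroxylation of arachidonic acid by CYP4A and for the activation and removal of vitamin D in the proximal tubule.

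The members were all genes whose symbol began with CYP and a number, or whose description in the deposited table named a cytochrome P450, after the symbols CYP11A1, CYP17A1, CYP11B1, CYP27B1 and CYP24A1 had been set aside, which removed 3 genes (the first 3). The symbols were matched as spelled, so CYP24, described as the vitamin D 24-hydroxylase, CYP17, described as the steroid 17-alpha-hydroxylase, and LOC101102377, described as 11B1, stayed in. This gave 58 of 25592 genes, of which 12 carried a CYP symbol, 46 carried only a LOC identifier with a described enzyme, and 5 were noncoding models. The reductase itself, LOC101115252, was among them because its description names the P450. All 58 start and end positions were equal to those of RefSeq's ARS-UI_Ramb_v3.0 sheep assembly, which was used for the chromosome names.

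The libraries came from kidneys of male Dorper × Small-tailed Han sheep, 4 months old when the trial began and fed for 21 days, with 5 libraries from each group of 6 sheep. The CON group ate the basal ration, the AFB1 group received AFB1 at 500 µg per kg of dry matter, and AFB1_CUR sheep ate this dose of AFB1 together with curcumin (CUR), the yellow phenol of turmeric, at 800 mg per kg. There was no group on CUR alone, so AFB1_CUR differs from CON by both compounds. The sheep were penned in pairs, and the labels do not tie libraries to pens, so p-values measure the spread between libraries. Total counts ran from 50255295 to 68747047 per library.

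One library stood apart from its label. In the library labelled AFB1 replicate 1, 18 hepatocyte genes averaged 10.53 on the log2(FPKM + 1) scale, and the other 14 libraries lay between 1.76 and 3.08. For 8 proximal tubule genes this average was 0.65 there and 6.56 to 8.22 elsewhere, and for 9 loop and collecting duct genes it was 0.73 and 6.35 to 7.27. That library is called liver-like below, from its marker genes, and the other 14 are called the kidney libraries. It was set beside the kidney libraries as a description and was left out of the group comparisons, which therefore had 5 CON, 4 AFB1 and 5 AFB1_CUR libraries; the counts of calls with all 15 libraries follow each comparison. In bulk tissue, fewer cells of a type and less RNA per cell cannot be told apart.

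**Figure D1:**
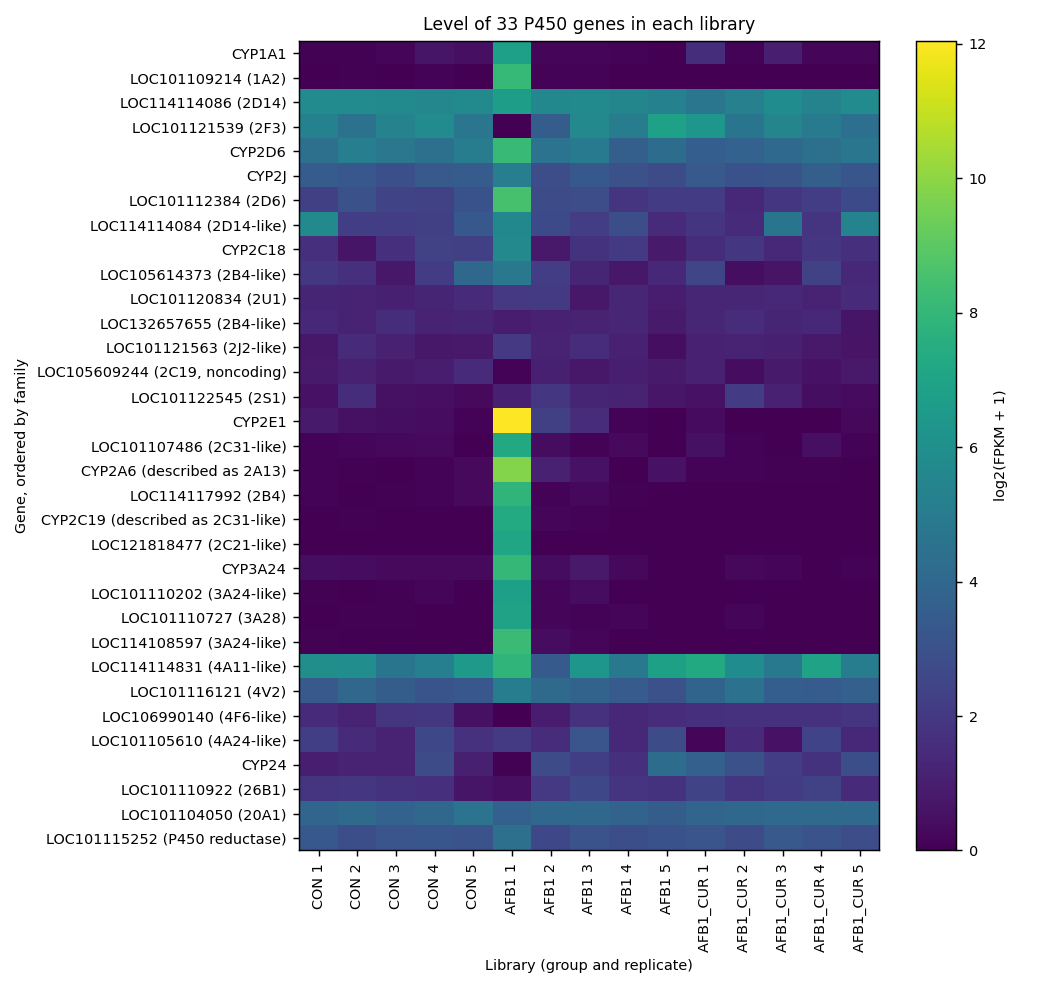
Level of 33 P450 genes (rows, ordered by family) in the 15 libraries (columns, group and replicate), as log2(FPKM + 1) on a color scale. The rows are the 21 genes that passed the filter in kidney and the 15 highest in the library labelled AFB1 replicate 1, some being both. That library is bright for CYP2E1 and the CYP3A genes, which are dark in the kidney libraries, and dark for LOC101121539 (CYP2F3) and CYP24.

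The kidney libraries used few of the 58 genes. Levels are given as FPKM, fragments scaled to gene length and to library size, as deposited. The summed level of the members was 184 to 366 FPKM in the kidney libraries, or 0.0659 to 0.140% of all counts. A level of at least 1 FPKM in at least 4 kidney libraries was reached by 21 members (36.2%, against 52.3% of all genes), 11 members were at 1 FPKM or more in all 14, and 4 were at 10 FPKM or more in all 14. In contrast, 32 members stayed under 1 FPKM in every kidney library, and 4 had no count in any of them. Those 4 were CYP19 (aromatase), LOC121818477 (described as 2C21-like), LOC132657663 and LOC132657759; a count of 0 means at most 3 counts a library at this depth, counting error only.

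The 4 members with the highest medians made up 49.6 to 80.0% of the summed level in the kidney libraries. The highest was LOC114114831, described as a taurochenodeoxycholic 6 alpha-hydroxylase-like and CYP4A11-like enzyme, a fatty acid and bile acid hydroxylase family, at chromosome 1, 21490032 to 21533442. Its level was 61.2, 59.3, 24.8, 36.1 and 86.8 FPKM in CON, 9.58, 80.6, 28.2 and 115 in AFB1 replicates 2 to 5, and 160, 56.1, 28.4, 121 and 33.9 in AFB1_CUR. It thus varied 16.7-fold among kidney libraries, and the lowest and highest values were both in treated sheep. The next, LOC114114086, described as CYP2D14 (chromosome 3, 219015082 to 219023655), was far steadier, between 25.9 and 57.1 FPKM with a median of 49.6.

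Next was LOC101121539, described as CYP2F3, a family known in other mammals for lung enzymes that oxidize naphthalene-type compounds. It lies at chromosome 14, 49474513 to 49485948. Its level was 38.3, 21.97, 41.0, 54.4 and 25.3 FPKM in CON, 10.6, 49.2, 32.9 and 119 in AFB1 replicates 2 to 5, and 80.2, 24.5, 43.1, 30.5 and 20.01 in AFB1_CUR. All 14 kidney libraries were above 10 FPKM, whereas the liver-like library had no count. After it came CYP2D6, a drug-oxidizing enzyme in humans, with a median of 20.9 FPKM (11.3 to 34.9). The neighbors in this order overlapped in their ranges, so that the order by median does not hold in each library.

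Below these came LOC101104050, described as CYP20A1, an orphan P450 with no settled substrate, at a median of 15.6 FPKM (10.7 to 23.0), and LOC101116121, described as the fatty acid hydroxylase CYP4V2, at 11.1 (6.93 to 22.6). CYP2J, of an arachidonic acid epoxygenase subfamily, was at 8.57 FPKM (5.70 to 11.5). The reductase LOC101115252, which passes electrons to the microsomal P450 enzymes, was at 7.46 (5.12 to 9.24). Its level varied 1.80-fold among kidney libraries, the narrowest range of the 21.

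Of the electron carriers outside the family, CYB5A (cytochrome b5) was at 113 to 248 FPKM in the kidney libraries. FDX1 (ferredoxin) was at 23.3 to 66.1 and FDXR (its reductase) at 4.20 to 8.18. CYB5A exceeded the reductase of the microsomal enzymes in each kidney library.

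The lower members were LOC101112384, a further gene described as 2D6, at a median of 4.02 FPKM, LOC114114084 (2D14-like) at 3.73, CYP24 at 3.70, LOC101110922 at 2.59, LOC106990140 (4F6-like) at 2.1996 and CYP2C18 at 2.15. LOC101110922 is described as CYP26B1, which degrades retinoic acid. LOC105614373 (2B4-like) at 1.92, LOC101105610 (4A24-like) at 1.83, LOC101120834 (2U1) at 1.39, LOC132657655 (2B4-like) at 1.39 and LOC101121563 (2J2-like) at 1.12 followed. LOC105609244, a noncoding model described after CYP2C19, was at 0.848 and LOC101122545, described as CYP2S1, at 0.586. No member of the CYP1 and CYP3 families passed the filter.

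The spread within groups was wide for many members. The SD of log2(FPKM + 1) around the group means, pooled over the 14 kidney libraries, had a median of 0.437 for the 21 members and 0.236 for all 13394 genes tested, and 17 of the 21 were above the latter. The widest was LOC114114084, at 1.49, the 99.6th percentile of all genes tested. Its level was 53.3 FPKM in CON replicate 1, 41.1 in AFB1_CUR replicate 5, 24.4 in AFB1_CUR replicate 3 and 9.12 in CON replicate 5, and 1.73 to 6.50 in the other 10. The high libraries were in CON and in AFB1_CUR, and the 4 AFB1 libraries were all low, so the groups overlapped. This gene lies between CYP2D6 and LOC101112384 on chromosome 3.

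All 4 members described as 2D genes lie within 83 kb on chromosome 3, from 218940622 to 219023655, and all 4 passed the filter. Over the 14 kidney libraries, log2(FPKM + 1) of CYP2D6 and LOC101112384 had a Pearson r of 0.89, that of CYP2D6 and LOC114114086 0.66 and that of CYP2D6 and LOC114114084 0.13. The points share libraries, and near-identical copies can share reads, so values of the 2D, 2B, 2C, 3A and 4A genes are uncertain as to which copy they belong to. The same holds for overlapping models on opposite strands, such as CYP2C19 with LOC101105314 and LOC105604882 with LOC121817887, since the strand setting of the counting is not given in the sources used here.

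LOC101122545 (CYP2S1), known for expression in epithelia, was highest in the replicates numbered 2 of each group, at 3.34 FPKM in AFB1_CUR, 2.76 in AFB1 and 2.02 in CON, and between 0.252 and 1.35 in the other kidney libraries. Over the 14 libraries its log2 level had an r of 0.77 with that of LOC101116121 (CYP4V2) and of -0.76 with the proximal tubule mean. AFB1_CUR replicate 2 had the lowest proximal tubule mean, 6.56, whereas AFB1 replicate 2 was at 6.91 and CON replicate 2 at 7.19. Of 7 adrenal cortex genes, summed to 15.9 FPKM in AFB1_CUR replicate 2, 6.04 in AFB1 replicate 2 and 0.376 to 1.32 in the other 12 kidney libraries, STAR and CYP11A1 were highest in these 2 libraries. CYP17A1, CYP11B1, MC2R and MRAP were not above the range of the other kidney libraries in both, and NR5A1 was at 0 in AFB1_CUR replicate 2. Of the 4 adipocyte genes in the table, FABP4 was at 62.8 FPKM in AFB1 replicate 2 and 5.75 in AFB1_CUR replicate 2, with at most 4.59 in the other kidney libraries. ADIPOQ was at 0.678 FPKM in AFB1_CUR replicate 2 and at most 0.0381 elsewhere. PLIN1 was at 0.319 FPKM in AFB1 replicate 2 and 0.219 in AFB1_CUR replicate 2, within the 0.175 to 0.507 of the other kidney libraries. CIDEC was at 0.356 FPKM in AFB1 replicate 2 and 0.104 in AFB1_CUR replicate 2, against 0 to 0.239 in the other kidney libraries. The mean log2(FPKM + 1) of the 4 genes was 1.72 in AFB1 replicate 2 and 0.98 in AFB1_CUR replicate 2, and 0.08 to 0.80 in the other 12 kidney libraries. The part of other cell types in the levels of LOC101122545 was not tested.

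**Figure D2:**
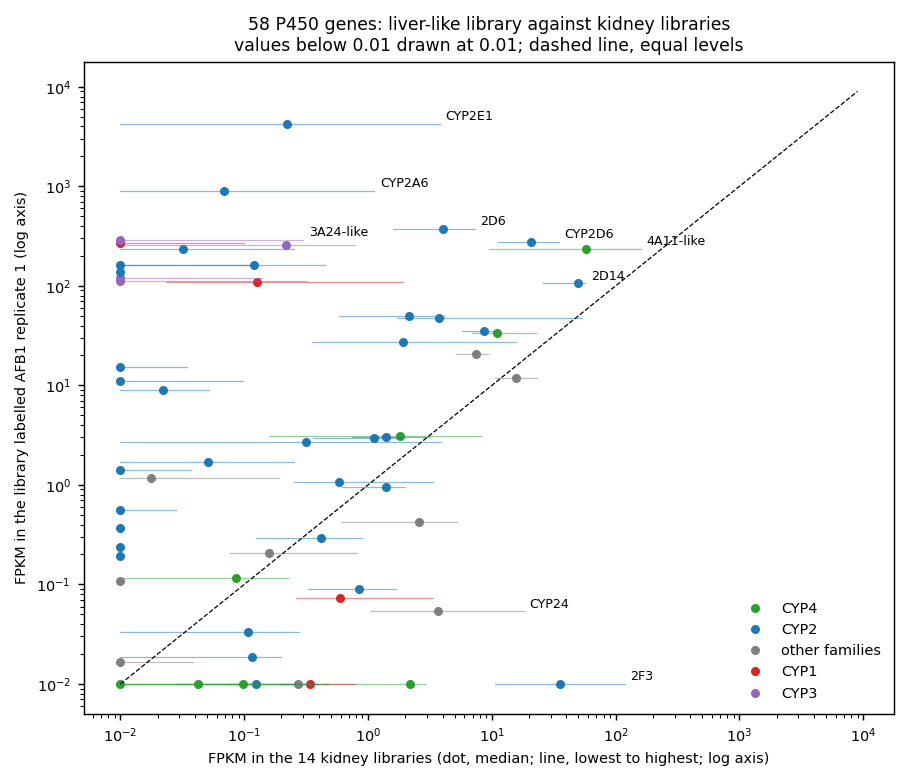
FPKM of the 58 genes in the library labelled AFB1 replicate 1 (vertical, log axis) against the 14 kidney libraries (horizontal, log axis; dot, median; line, lowest to highest), colored by family, with values under 0.01 drawn at 0.01. CYP2E1 stands highest on the left, CYP2F3 and CYP24 stand on the lower right, and 33 genes were above all kidney libraries.

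The liver-like library held the P450 genes at another order of magnitude. Their summed level there was 8273 FPKM, 33.1-fold above the kidney median of 250 FPKM, and they took 1.86% of its counts. Of the 58 members, 33 (56.9%) were above all 14 kidney libraries and 9 (15.5%) below all of them, whereas of all 25592 genes 10.4% were above and 40.9% below. With a single library of this kind there is no test, and these are levels of that library. Of the 21 members that passed the filter in kidney, 10 were above, 5 below and 6 within the kidney range.

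CYP2E1, which oxidizes ethanol and small solvents, led with 4228 FPKM, 51.1% of the summed level, against 0 to 3.83 FPKM in the kidney libraries. CYP2A6, described as 2A13, was at 904 FPKM against 0 to 1.13. These were 1104-fold and 803-fold above the highest kidney library. In all, 16 members exceeded 100 FPKM in the liver-like library, and 9 of those stayed under 1 FPKM in each kidney library.

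The CYP3 family, the main drug-oxidizing family of liver and gut, lies in a 224 kb stretch of chromosome 24, and its 4 members were all above the kidney range. They were LOC114108597 (3A24-like) at 292 FPKM, CYP3A24 at 258, LOC101110727 (3A28) at 121 and LOC101110202 (3A24-like) at 112, and together they came to 782 FPKM against a kidney median of 0.305. The CYP1A pair on chromosome 18 was also above the kidney range, with LOC101109214 (CYP1A2) at 271 FPKM against at most 0.1001, and CYP1A1, an aryl hydrocarbon receptor target, at 111 against at most 1.93. The other members of family 1, LOC101119706 (1B1) and LOC114113074 (described as 1A1, on chromosome 2), were below all kidney libraries. LOC114113074 had no count in the liver-like library, against 0.193 to 0.787 FPKM in kidney.

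On chromosome 22, all 8 CYP2C members in a 918 kb stretch were above the kidney range. CYP2C19, described as 2C31-like, was at 162 FPKM and LOC101107486 (2C31-like) at 161. LOC121818477 (2C21-like), on an unplaced sequence, was at 139. LOC114117992 (CYP2B4) on chromosome 14 was at 234 FPKM against at most 0.253. The 2D genes differed among themselves. LOC101112384 reached 375 FPKM and CYP2D6 279, which were 51.2-fold and 7.98-fold above the highest kidney library, but LOC114114086 only 107, or 1.87-fold, and LOC114114084, at 48.0, was within the kidney range. LOC114114831 (CYP4A11-like) was at 237 FPKM, 1.48-fold above the highest kidney library.

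The members below the kidney range included LOC101121539 (CYP2F3), LOC106990140 (4F6-like), with no count against 0.441 to 2.91 FPKM, and CYP24, at 0.0539 against 1.03 to 18.2. The noncoding LOC105609244 was at 0.0900 FPKM against 0.326 to 1.69. The 3 retinoid genes split by member. LOC101110922 (CYP26B1) was at 0.419 FPKM in the liver-like library against 0.608 to 5.19 in kidney, LOC101118856 (27C1) had no count against 0.0757 to 0.476, and LOC101103439 (CYP26A1) was at 1.17 against at most 0.191. The reductase LOC101115252 was at 20.8 FPKM, 2.25-fold above the highest kidney library.

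The members described as CYP1A2, CYP3A and CYP2A13, 6 genes in all, came to 1958 FPKM in the liver-like library. In the kidney libraries they summed to 0.550, 0.479, 0.345, 0.503 and 0.483 FPKM in CON replicates 1 to 5, to 2.09, 1.96, 0.315 and 0.486 in AFB1 replicates 2 to 5, and to 0.0704, 0.373, 0.217, 0.0434 and 0.116 in AFB1_CUR. The highest kidney sum was thus in AFB1 replicate 2 and the lowest in AFB1_CUR replicate 4. The group ranges of AFB1 and AFB1_CUR overlapped, as 0.315 lay below 0.373.

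CYP2E1, which is not one of these 6, also had low counts in kidney, and they are given beside a hepatocyte gene. ALB (serum albumin) had 2846 counts in AFB1 replicate 2, 1656 in AFB1 replicate 3 and 0 to 626 in the other kidney libraries. CYP2E1 had 376, 223 and 0 to 106 counts in the same libraries. CYP2E1 came to 13.2% of the ALB count in AFB1 replicate 2, to 13.5% in AFB1 replicate 3 and to 13.6% in the liver-like library. In the other 11 kidney libraries with an ALB count it was between 0 and 30.9%, with 30.9% in CON replicate 4, 30.8% in AFB1 replicate 4 and 0 in AFB1 replicate 5 and AFB1_CUR replicates 2 and 4. The sum of the 6 genes did not follow ALB throughout: it was 0.486 FPKM in AFB1 replicate 5, with 6 ALB counts, and 0.550 in CON replicate 1, with 537. CYP2A6, one of the 6, had 85 counts in AFB1 replicate 5. Of the 18 hepatocyte genes, 0 to 4 were without a count in a kidney library, and their summed level was 242 to 551 FPKM in CON, 276 to 484 in AFB1 and 118 to 351 in AFB1_CUR. Their mean log2(FPKM + 1) was 3.08 in AFB1 replicate 2 and 2.95 in AFB1 replicate 3, the highest of the kidney libraries, and at most 2.73 in the others. The part of hepatocyte RNA in these counts was not tested. None of the 6 genes passed the filter, so the main test did not include them. With no filter on low values, CYP2A6 was called higher in AFB1 than in CON (unadjusted p = 0.0354, edgeR; 3.41% of all genes called). In the same setting CYP2A6, LOC101110202 and LOC114108597 were called lower in AFB1_CUR than in AFB1 (unadjusted p = 0.00817, 0.0104 and 0.00723, edgeR; 2.78% of all genes called), and LOC101110202 lower in AFB1_CUR than in CON (unadjusted p = 0.0196, edgeR; 3.65%). CYP2E1 was also called lower in AFB1_CUR than in AFB1 there (unadjusted p = 0.0189, edgeR). So were LOC114117992 (CYP2B4) and CYP2C19 (unadjusted p = 0.00107 and 0.00499, edgeR), neither of them one of the 6. LOC114117992 and CYP2C19 were called lower in AFB1_CUR than in CON as well (unadjusted p = 0.000787 and 0.0135, edgeR). The fitted fold changes of these genes rest on few or no counts in AFB1_CUR and are not given.

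**Figure D3:**
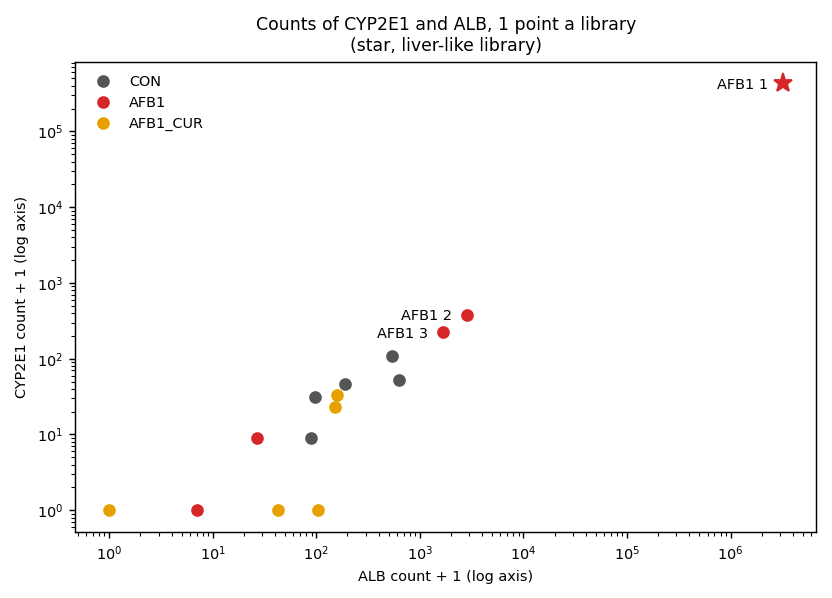
Counts of CYP2E1 (vertical, log axis, 1 added) against ALB (horizontal, log axis, 1 added), 1 point a library, colored by group, with the library labelled AFB1 replicate 1 as a star. AFB1 replicates 2 and 3 hold the highest kidney counts of both genes, and 3 AFB1_CUR libraries and 1 AFB1 library hold no CYP2E1 count.

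The first comparison asked what AFB1 feeding changed. CYP24, at chromosome 13, 81624097 to 81646391, is the mitochondrial 24-hydroxylase that inactivates vitamin D, and it is expressed in the proximal tubule. Its level was 1.03, 1.28, 1.24, 5.70 and 1.12 FPKM in CON and 5.94, 3.77, 2.199 and 18.2 in AFB1 replicates 2 to 5. All 4 AFB1 libraries were above 4 of the 5 CON libraries, but CON replicate 4 was above 2 of them, so the groups overlapped. The mean was 2.07 ± 2.03 (SD, n = 5) in CON and 7.52 ± 7.26 (SD, n = 4) in AFB1.

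By edgeR's quasi-likelihood test, CYP24 was higher in AFB1 by a log2 fold change of 1.89 (SE 0.70, unadjusted p = 0.0178). Calls required an unadjusted p below 0.05 together with more than a 1.5-fold difference. CYP24 was the one member called of 21 (4 AFB1 against 5 CON libraries), where 1.78% of all 13394 genes were called. Its adjusted p by edgeR's quasi-likelihood test was 0.957. Without AFB1 replicate 5 the log2 fold change was 0.84 (unadjusted p = 0.201, edgeR), and without CON replicate 4 it was 2.76 (unadjusted p = 0.000885, edgeR). With all 15 libraries CYP24 was not called (1.60, unadjusted p = 0.102, edgeR), and the 4 members then called, CYP2D6, LOC101112384, CYP2C18 and LOC101116121, were all highest in the liver-like library (4.99% of all genes were called in that fit).

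The other 20 members were not called between AFB1 and CON. Their estimates ran from -1.81 for LOC114114084 (SE 1.09) to 1.04 for LOC101122545 (SE 0.72), both with wide errors. Without CON replicate 1 the LOC114114084 estimate was -0.24, and without CON replicate 2 that of LOC101122545 was 1.82 and called (unadjusted p = 0.0193, edgeR). The drug-oxidizing 2D genes had estimates of -0.39 (SE 0.28, CYP2D6) and -0.30 (SE 0.34, LOC101112384), CYP2J -0.41 (SE 0.20, unadjusted p = 0.0555, edgeR) and the reductase LOC101115252 -0.25 (SE 0.20). The abundant LOC114114831 (CYP4A11-like) had 0.17 (SE 0.68) and LOC101121539 (CYP2F3) 0.60 (SE 0.59), which turned to -0.28 without AFB1 replicate 5, the library at 119 FPKM. Over the 21 members, 9 estimates were higher in AFB1 and 12 lower, with a median log2 fold change of -0.20, where the median of all genes was 0.02.

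**Figure D4:**
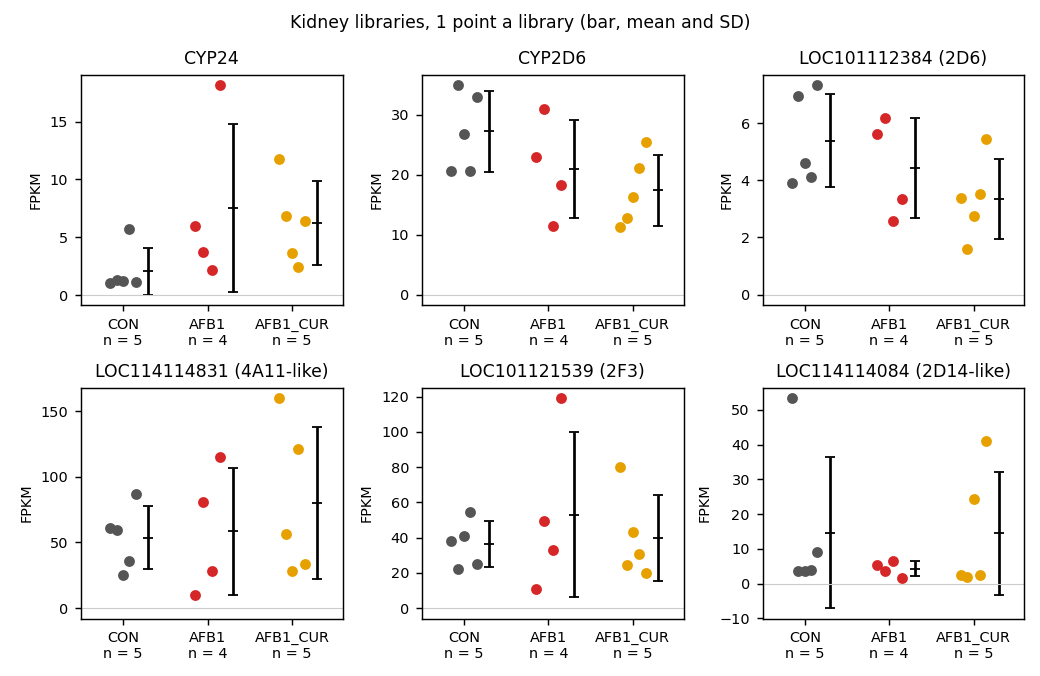
FPKM of 6 P450 genes in the CON (n = 5), AFB1 (n = 4) and AFB1_CUR (n = 5) kidney libraries, 1 point a library, with the mean and SD as bars. CYP24 lies near 1 in 4 CON libraries, LOC114114084 has 1 CON and 2 AFB1_CUR libraries far above the rest, and the points of the groups overlap in each panel.

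The next comparison asked what CUR changed in AFB1-fed sheep, and no member of 21 was called. Of all 13394 genes, 0.993% were called. CYP24 was at 11.8, 6.84, 3.62, 2.42 and 6.44 FPKM in AFB1_CUR, within the range of the AFB1 libraries, with a log2 fold change of AFB1_CUR against AFB1 of -0.40 (SE 0.69, unadjusted p = 0.575, edgeR). Leaving out AFB1 replicate 5 turned this estimate to 0.65 (unadjusted p = 0.334, edgeR). The largest estimates were 1.70 for LOC114114084 (SE 1.08, and 0.84 without AFB1_CUR replicate 5) and -1.45 for LOC101105610 (SE 0.76). LOC101105610, a 4A24-like gene, was at 0.160, 1.74, 0.480, 4.36 and 1.58 FPKM in AFB1_CUR and at 1.92, 8.12, 1.56 and 5.64 in AFB1, so the groups overlapped (unadjusted p = 0.0784, edgeR); without AFB1_CUR replicate 4 the estimate was -2.27 (unadjusted p = 0.00853, edgeR) and it was called. CYP2J had 0.31 (SE 0.20) and the reductase LOC101115252 0.11 (SE 0.20). Over the 21 members, 10 estimates were higher in AFB1_CUR and 11 lower (median -0.05, all genes 0.00). With all 15 libraries, 3 members (CYP2D6, LOC101112384 and CYP2C18) were lower in AFB1_CUR, with 4.05% of all genes called.

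The last comparison set AFB1_CUR against CON, which shares the CON libraries with the first. CYP24 was higher and the 2D6 genes were lower. CYP24 had a log2 fold change of 1.49 (SE 0.67, unadjusted p = 0.0431, edgeR), with a mean of 6.22 ± 3.62 FPKM (SD, n = 5). All 5 AFB1_CUR libraries were above 4 of the 5 CON libraries, and CON replicate 4 was above 2 of them. This call was lost without any of CON replicates 1, 2, 3 and 5 and AFB1_CUR replicates 1, 2 and 5, with unadjusted p values between 0.058 and 0.135 by edgeR. Without CON replicate 4 the log2 fold change was 2.36 (unadjusted p = 0.00209, edgeR).

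CYP2D6 was at 20.6, 34.9, 26.8, 20.6 and 33.0 FPKM in CON and at 11.3, 12.8, 16.3, 21.1 and 25.5 in AFB1_CUR. AFB1_CUR replicates 1 to 3 were below all CON libraries and replicates 4 and 5 lay inside the CON range. Its log2 fold change was -0.70 (SE 0.27, unadjusted p = 0.0189, edgeR), and it was called without each library in turn. LOC101112384 was at 3.91, 6.94, 4.61, 4.13 and 7.33 FPKM in CON and at 3.38, 1.59, 2.75, 3.52 and 5.45 in AFB1_CUR. In AFB1_CUR, 4 of 5 libraries were below all CON libraries, and the log2 fold change was -0.74 (SE 0.32, unadjusted p = 0.0382, edgeR). This call was lost without CON replicate 2 or 5 or AFB1_CUR replicate 1, 2 or 3 (unadjusted p of 0.0535 to 0.09996, edgeR). With all 15 libraries in the model, which called 1.11% of all genes, no member was called.

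The AFB1 libraries, with 23.0, 30.9, 11.5 and 18.3 FPKM of CYP2D6 and 5.63, 6.16, 2.57 and 3.35 of LOC101112384 in replicates 2 to 5, overlapped both groups. The hepatocyte mean was 2.25 to 2.73 in CON and 1.76 to 2.52 in AFB1_CUR, and over the 14 kidney libraries it had an r of 0.49 with CYP2D6 and of 0.73 with LOC101112384. The loop and collecting duct mean was 6.56 to 7.20 in CON and 6.35 to 7.27 in AFB1_CUR, with an r of 0.48 and of 0.62. CYP2D6 came to 77.3 to 33083% of the ALB count in the kidney libraries that had one, and to 0.874% in the liver-like library. LOC101112384 came to 19.2 to 6150% in these kidney libraries, and to 1.19% in the liver-like library. AFB1_CUR replicate 3 had no ALB count, with 1633 counts of CYP2D6 and 279 of LOC101112384. The part of either cell type in the levels of the 2D6 genes was not tested. The sum of the 4 2D members was 99.7 ± 21.1 FPKM in CON (SD, n = 5), 75.5 ± 13.8 in AFB1 (SD, n = 4) and 78.7 ± 35.1 in AFB1_CUR (SD, n = 5), a sum that carries the wide spread of LOC114114084.

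In all, 3 of 21 members were called between AFB1_CUR and CON, where 1.75% of all 13394 genes were called, and the members' adjusted p values started at 0.816 (edgeR's quasi-likelihood test). LOC114114086 (CYP2D14) had an estimate of -0.34 (SE 0.17, unadjusted p = 0.0694, edgeR) and the noncoding LOC105609244 -0.63 (SE 0.32, unadjusted p = 0.0685, edgeR). Without AFB1_CUR replicate 1, LOC105609244 was at -0.88 and called (unadjusted p = 0.0137, edgeR). LOC114114831 (CYP4A11-like) had 0.54 (SE 0.64), LOC101116121 (CYP4V2) 0.36 (SE 0.22) and LOC101110922 (CYP26B1) 0.57 (SE 0.37). Over the 21 members, 8 estimates were higher in AFB1_CUR and 13 lower (median -0.11, all genes 0.00).

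**Figure D5:**
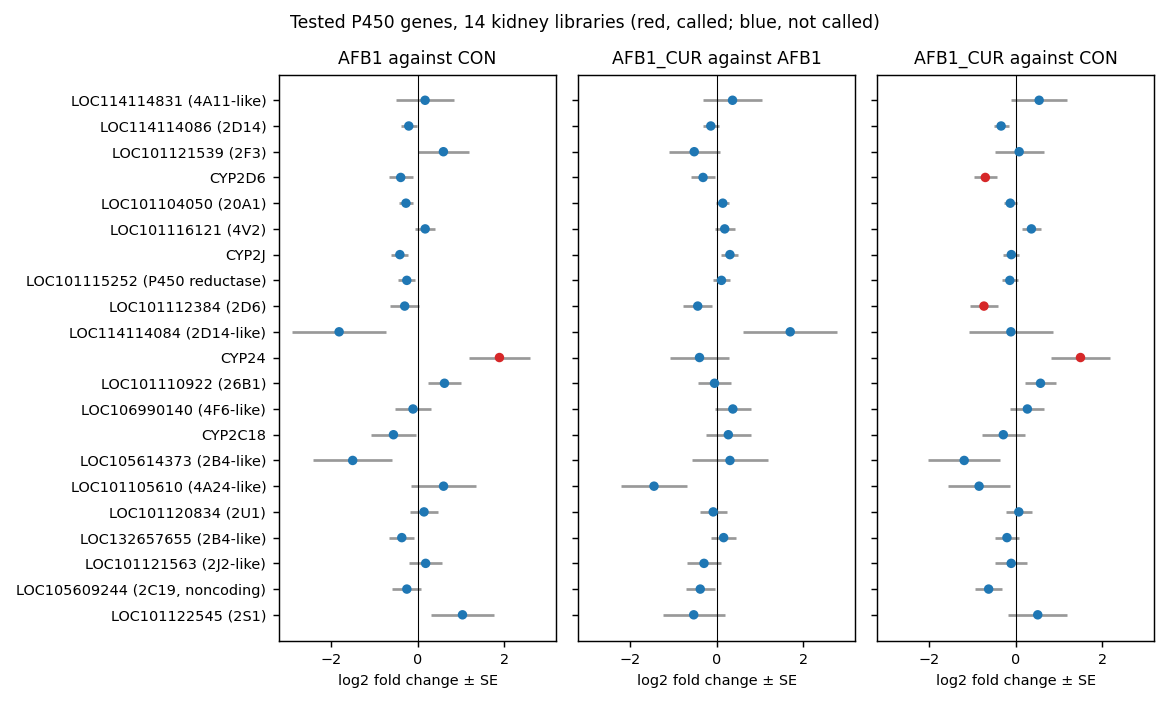
Log2 fold change with its SE (horizontal) of the 21 tested P450 genes in the 3 comparisons over the 14 kidney libraries, red where called (unadjusted p below 0.05 and over 1.5-fold). CYP24 is red in the panels against CON, CYP2D6 and LOC101112384 in the panel of AFB1_CUR against CON, and no gene in the middle panel.

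With Benjamini-Hochberg adjustment over all 13394 genes, 0% of genes passed 0.05 in any of these comparisons by edgeR's quasi-likelihood test with 3 groups in 1 model, and 670, 311 and 747 genes had an unadjusted p below 0.05. Fitted on the AFB1 and CON kidney libraries alone, the same test passed 1 gene (adjusted p = 0.0449, edgeR), not a P450 member. DESeq2 called 19, 3 and 2 genes after adjustment and limma 0, none of them a P450 member.

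Among the partners and regulators of P450 enzymes, 20 genes were tested, and none of 20 was called in any comparison, where 1.78%, 0.993% and 1.75% of all genes were. With all 15 libraries, ALAS1, EPHX1 and the xenobiotic receptors NR1I2 and NR1I3 were called higher in AFB1 than in CON and lower in AFB1_CUR than in AFB1, 4 of 20 each, where 4.99% and 4.05% of all genes were called, and all 4 had their highest level in the liver-like library. The electron carriers CYB5A, FDX1 and FDXR had estimates between AFB1 and CON of 0.08 (SE 0.29), 0.15 (SE 0.32) and -0.18 (SE 0.17). TIPARP, which restrains the aryl hydrocarbon receptor and is one of its targets, was at 5.205, 7.07, 9.96, 6.16 and 6.61 FPKM in CON and at 12.8, 11.4, 8.66 and 9.15 in AFB1 replicates 2 to 5. The log2 fold change of TIPARP was 0.57 (SE 0.16, unadjusted p = 0.00354, edgeR), just under the fold threshold, and AFB1_CUR against CON gave 0.24 (SE 0.15). AHR, the receptor itself, had 0.39 (SE 0.14, unadjusted p = 0.0159, edgeR) in AFB1 and 0.38 (SE 0.13, unadjusted p = 0.0144, edgeR) in AFB1_CUR, both against CON and both under the fold threshold.

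Beside these, CYP1A1, the receptor's best known target, was under 1 FPKM in all CON and AFB1 kidney libraries. CYP1A1 reached 1.93 FPKM in AFB1_CUR replicate 1 and 1.04 in AFB1_CUR replicate 3, with 0.0775 to 0.141 in the other 3. It did not pass the filter, and with no filter on low values it was called higher in AFB1_CUR than in AFB1 (log2 fold change 2.83, SE 1.09, unadjusted p = 0.0207, edgeR; 2.78% of all genes called). LOC101119706 (CYP1B1) did not pass the filter either, at 0.263 to 0.603 FPKM in CON and 0.577 to 1.88 in AFB1_CUR. In AFB1 replicates 2 to 5 it was at 0.274 to 3.36, highest in replicate 2. Without the filter it was called higher in AFB1 than in CON (log2 fold change 1.32, SE 0.54, unadjusted p = 0.0284, edgeR, with 3.41% of all genes called). NQO1 had an estimate of 0.13 in AFB1 against CON (SE 0.16, unadjusted p = 0.440, edgeR). HMOX1, which breaks down heme, had an estimate of 0.55 in AFB1 against CON (SE 0.24, unadjusted p = 0.0395, edgeR), and ALAS1, the first enzyme of heme synthesis, -0.06 (SE 0.14). EPHX1, the microsomal epoxide hydrolase, was at 66.3 to 130 FPKM in CON and 72.3 to 82.5 in AFB1, with an estimate of -0.27 (SE 0.23).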

How the data were processed

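Poly(A) RNA of 15 sheep kidney samples was sequenced. Per the labels, the authors trimmed reads with cutadapt 1.9, aligned them with HISAT2 2.2.1 and assembled with StringTie 2.1.6, and named DESeq2 and edgeR; the sources used here name no build. The deposited table held raw counts and FPKM values of 25592 genes, both made by the authors. Members and lists were chosen with earlier results of these data known. From the deposited counts, the 13394 genes at 1 FPKM or more in 4 or more of the 14 kidney libraries were tested with edgeR 4.0.16 (quasi-likelihood, TMM) in R 4.3.3, with 3 groups in 1 model and no covariates; SE is the log2 fold change over the square root of F. The script was tested on simulated data. Alternatives were all 15 libraries, the compared groups alone, DESeq2 1.42.0, RLE factors, no filter, limma 3.58.1 on log2(FPKM + 1), a replicate block and each library left out. Named were members that passed the filter, the 15 highest in the liver-like library, members called, and partners called or carrying electrons. Other genes named (other P450 models, ALB and other hepatocyte genes, the adrenal and adipocyte genes, TIPARP, AHR, NQO1, HMOX1, ALAS1, EPHX1, NR1I2, NR1I3) were chosen after their values were seen. Groups follow the sample titles, since the treatment label counts upward within a group. Depth was 50255295 to 68747047 counts a library. No sequences were used here.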

Additional observations from a re-analysis of the deposited data

Results flagged for a closer look

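Among the 21 tested members in each of 3 groups of kidney libraries (63 sets of 4 or 5 values), 7 had 1 library far from the rest of its group, its gap to the nearest value, as a share of the group's range, exceeding Dixon's 95% critical value. Chance flags about 1 in 20 sets. CYP24 was at 5.70 FPKM in CON replicate 4 and at 1.03 to 1.28 in the other CON libraries. LOC114114084 (2D14-like) was at 53.3 FPKM in CON replicate 1 and 3.50 to 9.12 in the others, and LOC105614373 (2B4-like) at 15.7 in CON replicate 5 and 0.695 to 3.45 in the others. LOC101110922 (CYP26B1) was at 0.608 FPKM in CON replicate 5, below the 2.19 to 2.79 of the others. LOC101122545 (CYP2S1) was at 2.02 FPKM in CON replicate 2, against 0.252 to 0.491, and at 3.34 in AFB1_CUR replicate 2, against 0.257 to 1.14. LOC101116121 (CYP4V2) was at 22.6 FPKM in AFB1_CUR replicate 2, against 10.5 to 13.8. With the library labelled AFB1 replicate 1 as the fifth of its group, 8 of the 21 members had it as such a library.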

How the results depend on the processing

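The number of P450 members called depended on the libraries and the filter. In the order AFB1 against CON, AFB1_CUR against AFB1 and AFB1_CUR against CON, the counts were 1, 0 and 3 of 21, and 4, 3 and 0 with all 15 libraries. Without the filter they were 3, 7 and 6 of 54 (3.41%, 2.78% and 3.65% of all genes). DESeq2 gave 1, 1 and 3 (2.14%, 1.23% and 2.07%), and limma 1, 0 and 2 (0.806%, 0.642% and 0.612%). Leaving out 1 library gave 0 to 2, 0 to 1 and 1 to 4 calls, while 1.59 to 3.51%, 0.956 to 2.15% and 0.978 to 2.50% of all genes were called: 0 in the first without AFB1 replicate 5 and 2 without CON replicate 2, 1 in the second without AFB1_CUR replicate 2 or 4, and 1 in the third without CON replicate 2 or 5 or AFB1_CUR replicate 2. With the replicate number as a block the counts were 2, 1 and 1 (1.78%, 1.18% and 2.24% of all genes), by other genes: CYP24 was lost in both comparisons with CON (edgeR unadjusted p = 0.0539 and 0.0829), LOC101112384 was lost (0.0585) and CYP2D6 stayed, whereas LOC101110922 (0.86, unadjusted p = 0.0174) and LOC101122545 (1.23, unadjusted p = 0.00454) were called higher in AFB1 than in CON and LOC101122545 lower in AFB1_CUR than in AFB1 (-0.88, unadjusted p = 0.0253). Of 13 pairs of libraries with the same number, 7 had deviations correlated above 0.1 (-0.306 to 0.603), and 4 of 14 libraries correlated best with their own number, so the numbers were not taken as pairs. The 3 libraries numbered 2 did correlate with each other (0.397, 0.435 and 0.603), a hint from the data that the labels do not explain.

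Genes outside the kidney range in the liver-like library numbered 42, and 42 to 43 without each kidney library, 44 by TMM-scaled CPM, 46 against CON alone and 34 of the 41 members over 1 FPKM somewhere. Of 1323 refits of single members, 23 turned in direction; sign changes within 1 SE of an uncalled value (31) are not counted. With all 15 libraries, in AFB1 against CON, these were LOC114114086 (0.46), CYP2D6 (2.01), CYP2J (0.90), LOC101115252 (0.64), LOC101112384 (4.57), LOC114114084 (0.38), CYP2C18 (2.80) and LOC105614373 (1.07), and, in AFB1_CUR against AFB1, LOC114114831 (-0.70), LOC101116121 (-0.62), CYP2J (-0.99), LOC101115252 (-0.76), LOC114114084 (-0.48), CYP2C18 (-3.07) and LOC105614373 (-2.26). With single libraries left out, LOC101121539 ranged from -0.28 (without AFB1 replicate 5) to 0.95 for AFB1 against CON and from -0.98 to 0.35 (without AFB1 replicate 5) for AFB1_CUR against AFB1, where CYP24 ranged from -0.81 to 0.65 (without AFB1 replicate 5). LOC101120834 ranged from -0.34 (without AFB1 replicate 2) to 0.39 and from -0.32 to 0.41 (without AFB1 replicate 2). In AFB1_CUR against CON, LOC101104050 ranged from -0.20 to 0.027 (without CON replicate 5), LOC114114084 from -0.97 to 1.46 (without CON replicate 1) and LOC101122545 from -0.36 (without AFB1_CUR replicate 2) to 1.29. Apart from the library set, the cause was not tested.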
